A study of Mus musculus with 25 samples.

Results

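The effect of losing the RNA sensor MDA5 was followed in peritoneal macrophages that already lacked SAMHD1. The comparison used 8 of the 25 libraries of the series, the 4 labelled SAMHD1 MDA5 DKO (both genes knocked out) against the 4 labelled SAMHD1 KO, and was chosen by these genotype names and not by any measured value. It covered 13252 of 13266 listed genes. All cells were mouse peritoneal macrophages, not treated and taken at Day 0 of the labels. Both groups lack SAMHD1, so they differ by genotype label in MDA5 alone. The same loss where SAMHD1 is present, MDA5 KO (4 libraries) against WT (5 libraries), shares no library with it and stands beside it below. The labels give no age, sex, strain or construct, and the titles of the SAMHD1 KO samples carry different line names (SAMHD1_DEL and SAMHD1_KO) that could not be tied to single columns. Nor do they tie libraries to individual mice, and p-values therefore reflect the spread among these samples only, which may be technical.

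MDA5, encoded by Ifih1, is a cytosolic helicase that binds long double-stranded RNA and signals through the mitochondrial adaptor MAVS to induce type I interferon. SAMHD1 hydrolyses deoxynucleotide triphosphates and acts at stalled replication forks, and its loss is known to raise interferon-stimulated genes in mouse macrophages. Large peritoneal macrophages are long-lived resident cells defined by the transcription factor Gata6, and their interferon-stimulated genes are kept at a basal level by weak interferon signalling.

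The listed genes held 25886469 to 36293333 reads in the 8 libraries. Large peritoneal macrophage markers, 19 of 20 measured, summed to 2159000 to 2994000 normalized counts in SAMHD1 MDA5 DKO and 2263000 to 2813000 in SAMHD1 KO, and none of the 19 had a mean under 1. SAMHD1 KO library 2 and WT library 3 stood apart on the first principal component and carry the highest 2 of the serial codes in the column names, whose meaning is not stated. Samhd1 itself had 1112, 4767, 1566 and 1299 normalized counts in SAMHD1 KO libraries 1 to 4 and 1397, 1069, 4952 and 1359 in SAMHD1 MDA5 DKO libraries 1 to 4. SAMHD1 KO library 2 and SAMHD1 MDA5 DKO library 3 thus kept intermediate levels, below the WT range of 6486 to 12817 and above their own groups, and results are also given without these libraries. Library numbers follow the order of the columns and serve as names only.

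The gene for MDA5 was all but silent in the double knockout. Ifih1 (chromosome 2, 62595798 to 62646255, GRCm38) had 1913, 1775, 2482 and 1932 normalized counts in SAMHD1 KO libraries 1 to 4 and 6.24, 1.15, 11.1 and 10.8 in SAMHD1 MDA5 DKO libraries 1 to 4. The groups were far apart, and the SAMHD1 KO level lay beside the WT range of 1632 to 2031. Its log2 fold change was -8.19 ± 0.50 (SE, n = 4 against 4, limma adjusted p = 8.56e-10). Here and below, the SE of a fold change uses the spread of the gene estimated over all 25 libraries, not these groups alone. The gene for the related sensor RIG-I, Ddx58, had 1676, 2072, 2247 and 1932 normalized counts in SAMHD1 KO libraries 1 to 4 and 1574, 1231, 1442 and 1336 in SAMHD1 MDA5 DKO libraries 1 to 4, with all 4 double-knockout libraries below all 4 SAMHD1 KO libraries, but it did not pass (-0.50 ± 0.12, limma adjusted p = 0.0697).

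Apart from Ifih1, few genes separated the double knockout from SAMHD1 KO at the threshold. Among 13252 genes, 16 (0.121%) had a Benjamini-Hochberg adjusted p under 0.05, 7 higher (0.0528%) and 9 lower (0.0679%). Many more genes leaned one way without passing: 3156 (23.8%) had an unadjusted p under 0.05, 1751 of them higher (13.2%) and 1405 lower (10.6%). The libraries of the groups did not overlap, with a difference of 2-fold or more, for 91 genes (0.687%). Fewer cells of a type and less RNA per cell cannot be told apart in such bulk samples. The number of calls turned on single libraries. Leaving out SAMHD1 KO library 1, 2 or 3 gave 33, 10 and 43 calls, and leaving out SAMHD1 MDA5 DKO library 2, 3 or 4 gave 8, 32 and 10. Without the libraries apart on the first component 534 genes were called (4.03%), 446 higher (3.37%) and 88 lower (0.664%), and all 16 were among them. Of these libraries, WT library 3 belongs to neither group and enters the comparison only through the spread shared by all 25 libraries. Leaving out SAMHD1 KO library 2 alone gave the 10 calls above. The count was 6 without the libraries of intermediate Samhd1 and 1152 without all 3, that is, with WT library 3 left out as well.

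**Figure D1:**
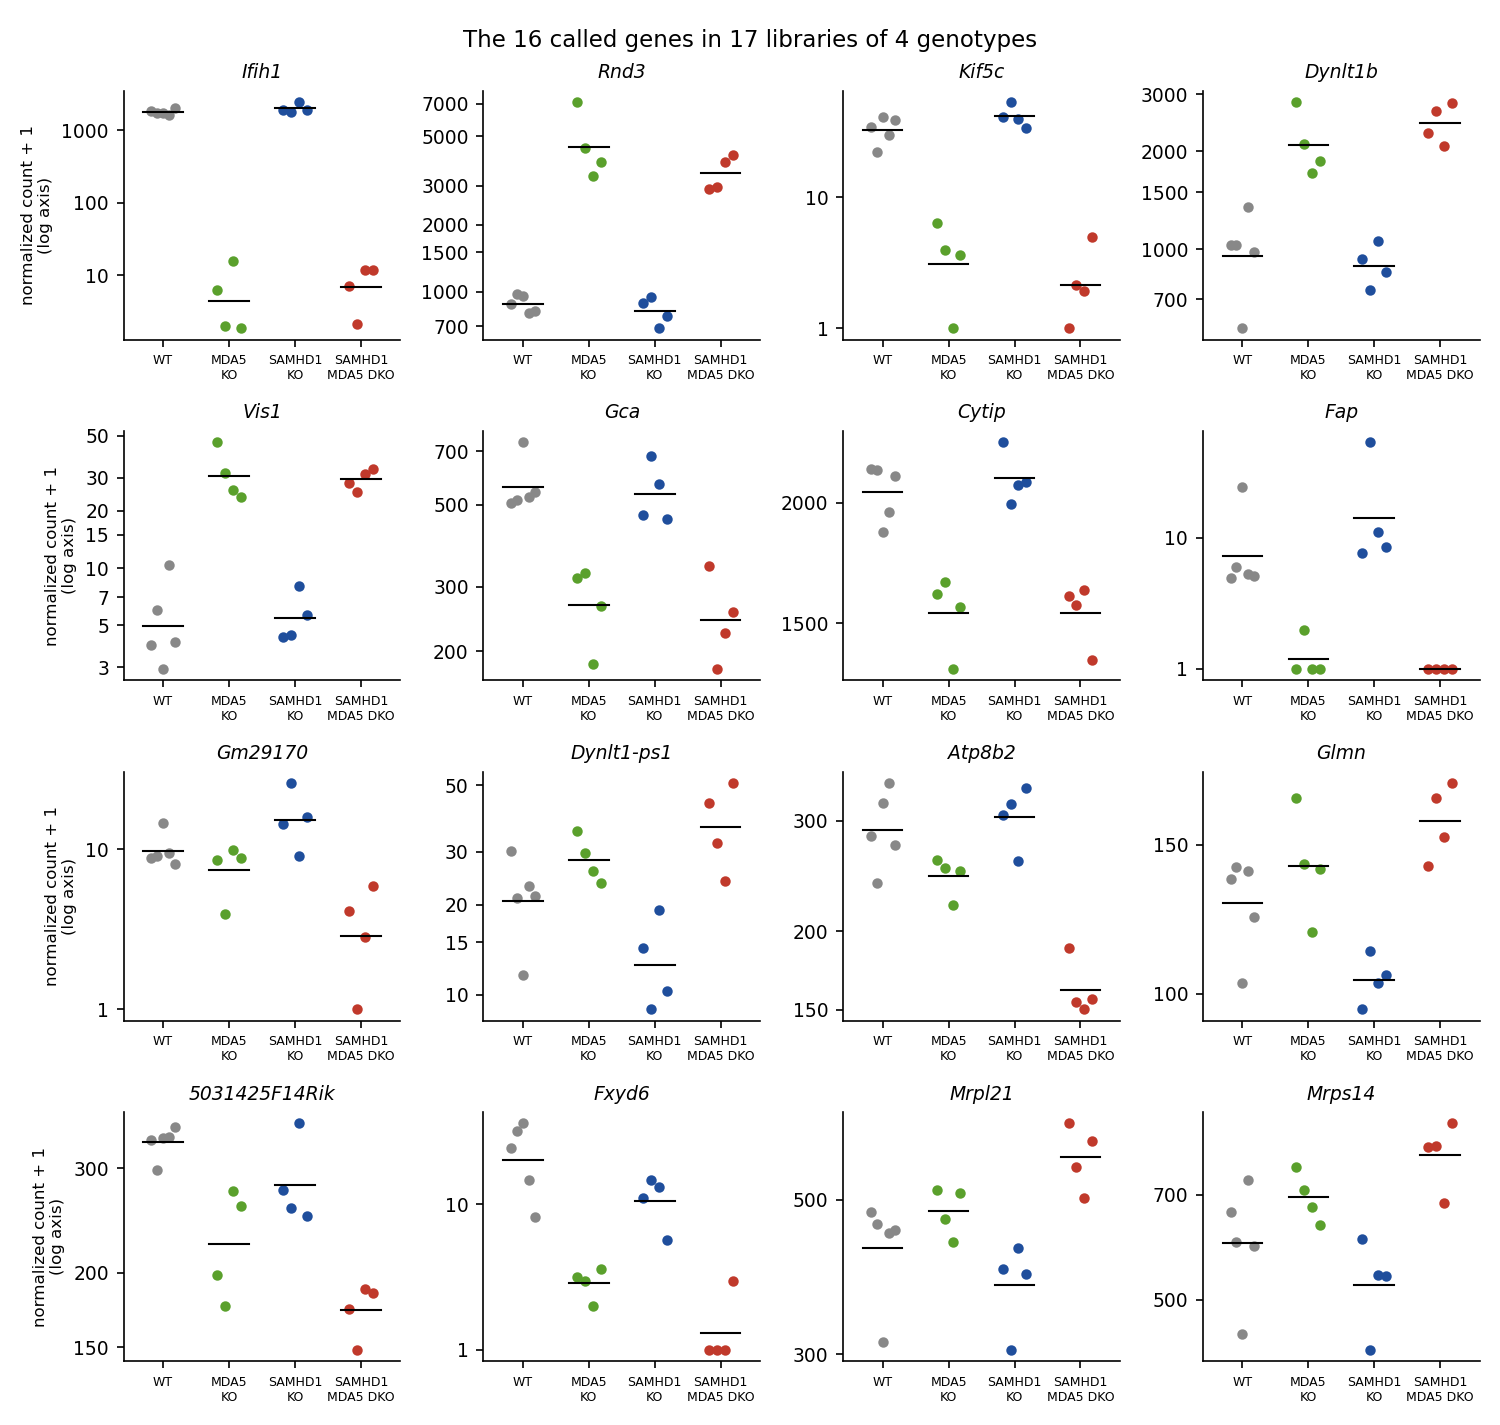
Normalized count + 1 (log axis, each panel with its own range) of the 16 called genes in every WT, MDA5 KO, SAMHD1 KO and SAMHD1 MDA5 DKO library; points are libraries and bars are means of the log values. For each gene the SAMHD1 MDA5 DKO points lie all above or all below the SAMHD1 KO points. Genes whose MDA5 KO points are likewise separated from WT include Ifih1, Rnd3, Kif5c, Vis1, Gca, Cytip, Dynlt1b and Fxyd6.

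Of the 15 called genes other than Ifih1, 6 lay within 20 megabases of Ifih1 on chromosome 2, among 113 tested genes (5.31% called). On the rest of chromosome 2, 1 of 932 genes was called (0.107%), and on other chromosomes 8 of 12206 (0.0655%). The count near Ifih1 was 3 of 20 genes within 5 megabases and 3 of 57 within 10 megabases. Around Samhd1 on the same chromosome, which both groups lack, 1 of 283 genes within 20 megabases was called (0.353%). The count near Ifih1 was 6 or 7 whichever library was left out, and 4 without the libraries of intermediate Samhd1. It was 12 without the libraries apart on the first component, where 534 of 13252 genes were called (4.03%). It was 21 without those and SAMHD1 MDA5 DKO library 3, where 1152 of 13252 were called. Calls thus rose over the whole genome in these fits, not near Ifih1 alone. Loss of MDA5 and any other difference that chromosome 2 carries around the targeted allele go together in these groups and cannot be told apart.

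Rnd3, an atypical small GTPase that loosens the actin cytoskeleton, rose (chromosome 2, 51130438 to 51149111). It had 883.8, 942.5, 683.1 and 771.9 normalized counts in SAMHD1 KO libraries 1 to 4 and 2895, 2946, 3835 and 4099 in SAMHD1 MDA5 DKO libraries 1 to 4. Every double-knockout library lay above every SAMHD1 KO library, and the log2 fold change was 2.06 ± 0.20 (limma adjusted p = 4.24e-06). Vis1, annotated as a short non-coding RNA (chromosome 2, 45280724 to 45280924), rose with it, from 3.35, 3.41, 7.06 and 4.65 in SAMHD1 KO to 27.03, 24.2, 30.4 and 32.4 in SAMHD1 MDA5 DKO (2.43 ± 0.34, adjusted p = 7.28e-04). Its level was low, but the groups were well separated.

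The other 4 called neighbours fell. Kif5c, a kinesin heavy chain best known from neurons (chromosome 2, 49619298 to 49774778), had 40.2, 52.3, 38.3 and 32.6 in SAMHD1 KO and 0, 1.15, 0.921 and 3.92 in SAMHD1 MDA5 DKO, close to nothing in every double-knockout library. Its log2 fold change was -4.28 ± 0.44 (limma adjusted p = 6.76e-06). Gca, which encodes the calcium-binding protein grancalcin of phagocytes and lies close to Ifih1 (chromosome 2, 62664285 to 62694109), had 467.5, 677.6, 569.1 and 455.7 in SAMHD1 KO and 339.9, 178.5, 223.8 and 254.9 in SAMHD1 MDA5 DKO. The highest double-knockout library, the first, stayed below the lowest SAMHD1 KO library (-1.14 ± 0.18, adjusted p = 0.00623). Cytip, a cytohesin-binding protein that tunes leukocyte adhesion (chromosome 2, 58129137 to 58195532), had 2311, 1995, 2085 and 2103 in SAMHD1 KO and 1601, 1566, 1622 and 1374 in SAMHD1 MDA5 DKO. That was a small but tight difference of -0.46 ± 0.08 on the log2 scale (adjusted p = 0.00667).

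Fap, a membrane serine protease usually found on activated fibroblasts (chromosome 2, 62500943 to 62574075), had 6.70, 52.3, 10.1 and 7.44 in SAMHD1 KO and 0, 0, 0 and 0 in SAMHD1 MDA5 DKO. It was at 0 in every double-knockout library, and SAMHD1 KO library 2 alone held most of the 70 reads of its group. Set against a floor of 3 reads over the double-knockout group, the SAMHD1 KO mean of Fap was 24.9-fold higher, and 10.5-fold higher without SAMHD1 KO library 2. These ratios bound the double-knockout reads only and leave out the spread among SAMHD1 KO libraries. The log2 fold change was -3.81 ± 0.63 (limma adjusted p = 0.00667 with all libraries). Of 15 mesothelial, stromal and endothelial markers 1 was tested, the endothelial adhesion molecule Pecam1, which ran from 24.2 to 69.2 in SAMHD1 KO and 22.1 to 30.1 in SAMHD1 MDA5 DKO. Its part in the level of Fap was not tested.

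**Figure D2:**
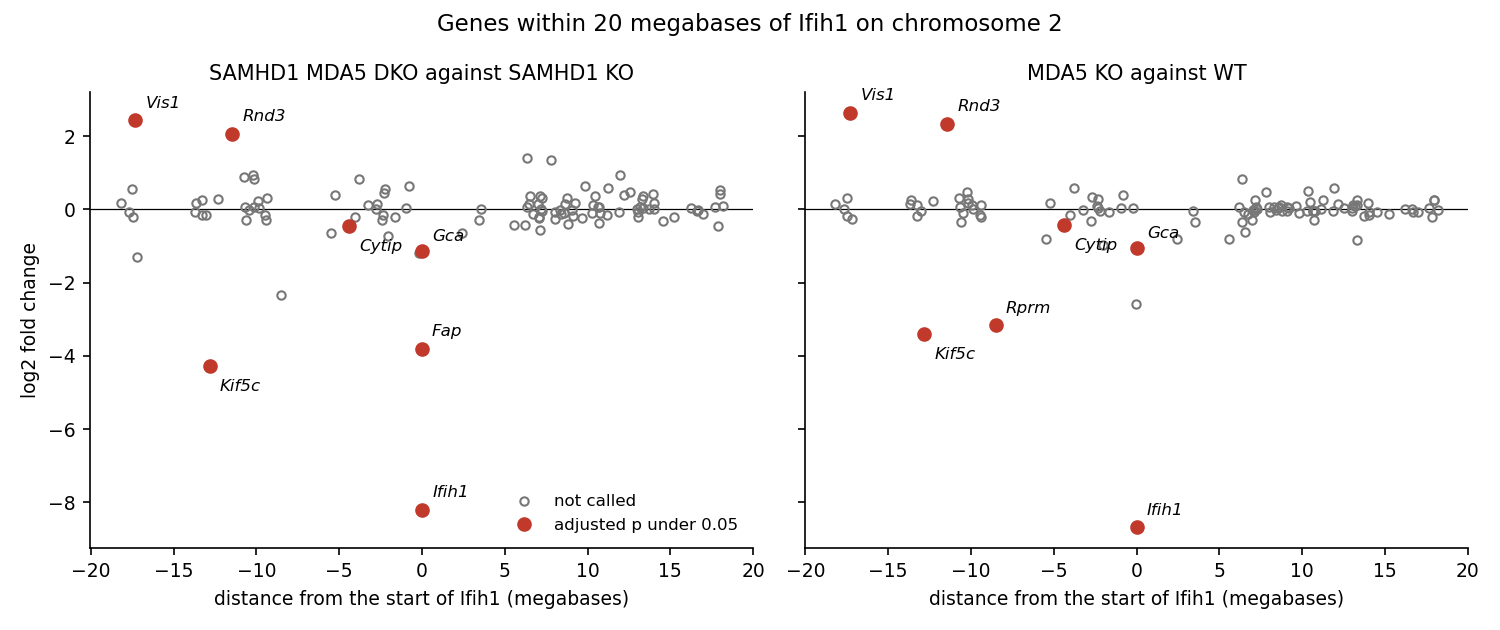
Log2 fold change of the tested genes within 20 megabases of Ifih1 against their distance from its start (megabases), for SAMHD1 MDA5 DKO against SAMHD1 KO (left) and MDA5 KO against WT (right); filled points have an adjusted p under 0.05. Vis1, Rnd3, Kif5c, Cytip and Gca are called on the same side of 0 in both panels, while Fap is called on the left and Rprm on the right.

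Outside that window the clearest gene was Dynlt1b, a light chain of the cytoplasmic dynein motor (chromosome 17, 6430112 to 6436296). It rose from 929.5, 745.8, 1060.5 and 851.9 normalized counts in SAMHD1 KO to 2276, 2665, 2080.0 and 2828 in SAMHD1 MDA5 DKO, with no overlap (1.46 ± 0.18, limma adjusted p = 1.73e-04). Dynlt1b has near-identical copies among which reads may be split, so its value is uncertain. The copies, looked at after its value was seen, did not pass: Dynlt1a had 0.30, Dynlt1c -0.26 and Dynlt1f 0.44 on the log2 scale. The processed pseudogene Dynlt1-ps1 on chromosome 6 did, with 7.96 to 18.2 in SAMHD1 KO and at least 23.03 in every SAMHD1 MDA5 DKO library (1.52 ± 0.29, adjusted p = 0.028).

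The other genes that rose were Mrpl21, Mrps14 and Glmn. Mrpl21, of the large mitochondrial subunit, had 397.2, 303.5, 425.8 and 389.7 in SAMHD1 KO and 642.5, 556.3, 501.1 and 606.8 in SAMHD1 MDA5 DKO (0.61 ± 0.12, limma adjusted p = 0.0391), and it overlaps Ighmbp2, with which it may share reads. Mrps14, of the small subunit, rose by 0.60 ± 0.12 on the log2 scale (adjusted p = 0.0451). Glmn, or glomulin, which binds the RING protein of cullin ubiquitin ligases, rose by 0.62 ± 0.12 (adjusted p = 0.0285). Glmn overlaps Rpap2 and may share reads with it. Each of the 3 had its 4 double-knockout libraries above its 4 SAMHD1 KO libraries.

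Among genes that fell outside the window, Fxyd6, a regulator of the sodium pump on chromosome 9, was close to the detection limit, with 10.04, 13.6, 12.1 and 4.65 in SAMHD1 KO and 0, 0, 0 and 1.96 in SAMHD1 MDA5 DKO (38 against 2 reads, adjusted p = 0.0345). The ratio of the means was 20.6, with a 95% exact interval of 5.03 to 166 that covers counting error only. Atp8b2, a phospholipid flippase, had 304.6, 318.3, 257.3 and 337.6 in SAMHD1 KO and 187.1, 153.2, 149.2 and 154.9 in SAMHD1 MDA5 DKO, so that even the high first double-knockout library lay below all of SAMHD1 KO (-0.91 ± 0.17, limma adjusted p = 0.028). The non-coding 5031425F14Rik, the 1 called gene on the rest of chromosome 2, fell by 0.70 on the log2 scale (adjusted p = 0.0342). Gm29170, an RNA inside an intron of Uchl5 that may share reads with unspliced RNA of its host, had 13.4, 25.01, 8.07 and 14.9 in SAMHD1 KO and 3.12, 0, 1.84 and 4.90 in SAMHD1 MDA5 DKO (-2.40 ± 0.44, adjusted p = 0.0195).

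Just outside the threshold stood Bc1, a small cytoplasmic RNA that represses translation, with 84.8, 87.5, 203.8 and 36.3 in SAMHD1 KO and 452.2, 518.3, 233.1 and 551.0 in SAMHD1 MDA5 DKO (2.26 ± 0.48, limma adjusted p = 0.0664). The groups did not overlap, although SAMHD1 KO library 3 came near the lowest double-knockout library. Cox5b, a subunit of cytochrome c oxidase, had 0.65 ± 0.14, the histone deacetylase gene Hdac7 -0.65 ± 0.14, and Gm20390, a readthrough locus over Nme1 and Nme2 whose reads overlap theirs, 0.83 ± 0.17 (each adjusted p = 0.0664).

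Where SAMHD1 was present, the loss of MDA5 gave a similar short list. MDA5 KO against WT had 9 called genes (0.0679%), of which 7 were also called in the SAMHD1-deficient comparison, 43.8% of the 16 and 77.8% of the 9. These were Ifih1, Rnd3, Kif5c, Vis1, Gca, Cytip and Dynlt1b. Rnd3 was 798.4 to 978.6 normalized counts in WT and 3329 to 7146 in MDA5 KO (2.34 ± 0.19, limma adjusted p = 1.32e-07). Kif5c was 21.04 to 39.8 against 0 to 5.36, and Gca 506.0 to 738.7 against 183.6 to 325.8. All 16 had the same sign in MDA5 KO against WT, and 10 of them an unadjusted p under 0.05 there.

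The 2 genes called with SAMHD1 present but not in its absence were Rprm and 1700016A09Rik. Rprm, a p53-induced inhibitor of the cell cycle that lies within 10 megabases of Ifih1, had 18.97, 52.3, 30.3 and 46.5 in SAMHD1 KO and 2.08, 4.61, 8.29 and 13.7 in SAMHD1 MDA5 DKO, without overlap (-2.35 ± 0.58, limma adjusted p = 0.0789), beside -3.17 ± 0.55 in MDA5 KO against WT (adjusted p = 0.012). For 1700016A09Rik on chromosome 8 the values were 0.19 ± 0.31 in the double knockout and 1.58 ± 0.30 in MDA5 KO.

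Whether the loss of MDA5 acted differently with and without SAMHD1 was tested by the interaction of both. Limma called 0 of 13252 genes (smallest adjusted p = 0.98), with 368 (2.78%) at an unadjusted p under 0.05, and voom also called 0. When 1 library was left out, 224 to 1614 genes were at that unadjusted threshold, most without WT library 3, and still 0 were called. The 9 genes called in the SAMHD1-deficient comparison only are therefore not shown to differ between backgrounds. Of these, 6 had an unadjusted interaction p under 0.05. They were picked by the very comparisons whose difference is the interaction, so that count cannot decide the question. Of the 5 genes with the smallest interaction p, Pear1, a receptor of platelets and endothelium, had 1417, 1932, 1529 and 1401 in SAMHD1 KO and 520.8, 1040.1, 1125 and 1046 in SAMHD1 MDA5 DKO. Its log2 fold change was -0.80 ± 0.20 in SAMHD1-deficient cells (adjusted p = 0.0789) and 0.12 ± 0.19 with SAMHD1 present. The others were Tns2, a focal adhesion protein (-0.60 and 0.22), Ucp1, the uncoupling protein of brown fat (0.68 and -0.99), and the predicted genes Gm49519 (-3.08 and 0.63) and Gm29394 (-0.75 and 1.40).

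Interferon-stimulated genes are the classical output of MDA5 signalling. Many carry an interferon-stimulated response element, the site of the factor ISGF3, in their promoter. The motif GAAANNGAAA, read on either strand (TTTCNNTTTC on the other), occurred within 250 bases upstream of the start in 23 of 53 list members with a promoter in RefSeq (43.4%), beside 323 of 9556 tested genes (3.38%) and 978 of 32851 promoters (2.98%). Shown here are the 4 members with the motif and the smallest p between SAMHD1 MDA5 DKO and SAMHD1 KO. The groups did not overlap for Ddx60, Slfn5 and Ifi213, and overlapped for Rsad2. Each sequence is the stretch of a RefSeq promoter (GRCm38.p6) around the motif, 5′ to 3′ on the strand of the gene, with the motif in capitals. The motif ends 145 bases before the start for Slfn5, 110 for Rsad2 and 63 for Ifi213, so these stretches stop short of the start.
Ddx60, chr8:61927974-61928086, plus strand: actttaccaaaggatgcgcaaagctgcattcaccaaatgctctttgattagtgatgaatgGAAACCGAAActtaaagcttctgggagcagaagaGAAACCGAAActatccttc
Slfn5, chr11:82951887-82952016, plus strand: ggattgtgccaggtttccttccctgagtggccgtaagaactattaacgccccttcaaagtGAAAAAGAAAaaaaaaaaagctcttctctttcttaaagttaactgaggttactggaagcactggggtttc
Rsad2, chr12:26456503-26456632, minus strand: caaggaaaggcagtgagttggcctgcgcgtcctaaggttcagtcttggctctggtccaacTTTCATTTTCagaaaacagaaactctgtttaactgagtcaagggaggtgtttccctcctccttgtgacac
Ifi213, chr1:173599276-173599405, minus strand: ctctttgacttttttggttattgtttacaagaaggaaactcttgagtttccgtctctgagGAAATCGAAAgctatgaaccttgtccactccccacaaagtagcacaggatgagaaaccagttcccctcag
Ddx60 holds the motif at 2 places, the nearer ending 9 bases before the start. A match describes these letters only and says nothing of binding in these cells.

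The interferon-stimulated genes had mostly negative log2 fold changes in SAMHD1 MDA5 DKO against SAMHD1 KO, but none passed over all genes. Of 67 tested members, with Ifih1 left out of the list, 61 were negative and 6 positive. Their median was -0.34, beside -0.03 over all genes tested, and they ran from -1.58 to 0.38, with 5 at least 2-fold lower. No member was called by limma (smallest adjusted p = 0.0664), while 29 (43.3%) were lower at an unadjusted p under 0.05, against 10.6% of all genes. For 12 (17.9%) the 4 double-knockout libraries all lay below the 4 SAMHD1 KO libraries, against 3.5% of all genes. Without the libraries apart on the first component the median was -0.31 with 64 of 67 negative. In that fit 4 members were called lower, beside 0.664% of all genes. It also leaves out WT library 3, which is in neither group. Without SAMHD1 KO library 2 alone the median was the same, and 10 genes were called over the genome.

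**Figure D3:**
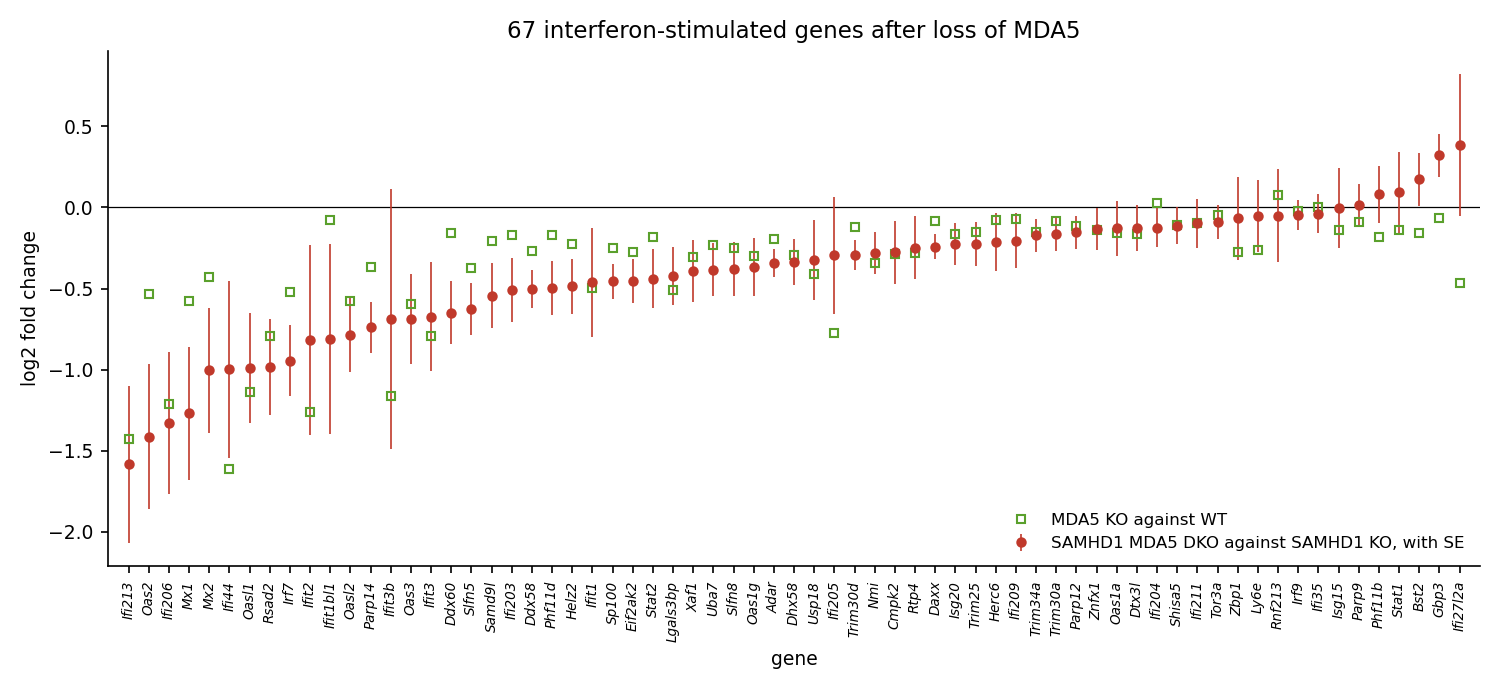
Log2 fold change of 67 interferon-stimulated genes, ordered by their value in SAMHD1 MDA5 DKO against SAMHD1 KO (red points, bars are SE), with the value in MDA5 KO against WT (green squares). In the first comparison 61 of 67 points lie below 0 and in the second 64, and the largest negative values are those of Ifi213, Oas2, Ifi206 and Mx1.

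Parp14, a mono-ADP-ribosyltransferase of the interferon response, had 5732, 6180.0, 6868 and 4257 normalized counts in SAMHD1 KO libraries 1 to 4 and 3205, 3989.8, 3740.0 and 2793 in SAMHD1 MDA5 DKO libraries 1 to 4. Its groups were separate, and its log2 fold change was -0.74 ± 0.16 (limma adjusted p = 0.0664). Irf7, the factor that amplifies type I interferon production, had 3211, 3619, 6114 and 4664 in SAMHD1 KO and 3183, 1877, 1966 and 2052 in SAMHD1 MDA5 DKO. Its first double-knockout library lay just under the lowest SAMHD1 KO library and far above the other 3 (-0.94 ± 0.22, adjusted p = 0.0697). Sp100, of the PML nuclear bodies, had -0.46 ± 0.11 and Slfn5, a nuclear restriction factor, -0.63 ± 0.16, again without overlap.

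The sensors and effectors of RNA among them had values of the same kind. Adar, which edits double-stranded RNA and so keeps it from MDA5, had 3595, 4134, 4364 and 3535 in SAMHD1 KO and 3412, 3003, 3135 and 2764 in SAMHD1 MDA5 DKO (-0.34 ± 0.09, limma adjusted p = 0.0789). Eif2ak2, the double-stranded RNA kinase PKR, had -0.45 ± 0.13, and the helicase Ddx60 -0.65 ± 0.19. Rsad2, or viperin, which makes a chain-terminating nucleotide, had 303.5, 369.5, 692.2 and 377.6 in SAMHD1 KO and 330.6, 177.4, 159.4 and 202.9 in SAMHD1 MDA5 DKO (-0.98 ± 0.29); its groups overlapped. Ifi213, of the PYHIN family of DNA sensors, had -1.58 ± 0.48, Oas2, which makes the activator of RNase L, -1.41 ± 0.45, and the antiviral GTPase Mx1 -1.27 ± 0.41. Reads of Ifi213 and its family may be split among similar copies.

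As a level, the mean log2 value of the 67 genes was 10.21, 10.35, 10.72 and 10.41 in SAMHD1 KO libraries 1 to 4 and 10.43, 9.93, 9.84 and 9.86 in SAMHD1 MDA5 DKO libraries 1 to 4. Libraries 2 to 4 of the double knockout lay below all of SAMHD1 KO, and library 1 within their range. Over genotypes the level was 9.43 ± 0.23 in MDA5 KO (SD, n = 4), 9.62 ± 0.15 in RIG-I KO (n = 4), 9.78 ± 0.28 in WT (n = 5), 10.02 ± 0.28 in SAMHD1 MDA5 DKO, 10.36 ± 0.10 in SAMHD1 RIG-I DKO and 10.42 ± 0.22 in SAMHD1 KO (n = 4 each). The ranges of neighbours in that order overlapped, and the mean of the double knockout stood between those of WT and SAMHD1 KO. Without its library 1 the median difference from SAMHD1 KO was -0.46. In SAMHD1 RIG-I DKO, which is compared with the same SAMHD1 KO libraries, the median was -0.03, with 37 of 67 members negative.

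With SAMHD1 present, MDA5 loss gave the interferon-stimulated genes a median of -0.23, with 64 of 67 negative and 20 lower at an unadjusted p under 0.05, a threshold passed in either direction by 5.27% of all genes. Lower at that threshold in both backgrounds were 16 genes, 55.2% of the 29 and 80% of the 20. The interaction had a median of -0.07 over the list, and limma gave 1 member, Gbp3, an unadjusted p under 0.05. A difference in the effect of MDA5 between the backgrounds was thus not detected at this number of libraries.

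Genes linked to interferon-gamma had mostly positive values, which turned on 1 library. Of 17 interferon-inducible GTPases, which attack vacuoles of intracellular pathogens, 13 were positive and 4 negative, with a median of 0.24 and none called. Their mean log2 level was 9.44, 9.73, 10.23 and 9.65 in SAMHD1 KO and 11.37, 9.54, 9.62 and 9.56 in SAMHD1 MDA5 DKO. Library 1 of the double knockout stood far above the other 7, and without it the median was -0.21 with 12 of 17 negative. Gbp3, a guanylate-binding protein that the interferon-stimulated list also holds, had 3249, 3606, 4506 and 3635 in SAMHD1 KO and 6536, 4065, 4113 and 4279 in SAMHD1 MDA5 DKO (0.32 ± 0.14). Gbp2b had 0.35 ± 0.18, Ifi47 0.53 ± 0.28 and Gbp2 0.45 ± 0.25 on the log2 scale.

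A separate list of 15 interferon-gamma-linked genes, 11 of them tested, had the same library on top. Its level was 8.72, 8.61, 8.67 and 8.69 in SAMHD1 KO and 9.85, 8.53, 8.41 and 8.41 in SAMHD1 MDA5 DKO, with a median log2 fold change of 0.10 that became -0.21 without double-knockout library 1. Psmb8 and Psmb9, catalytic subunits of the immunoproteasome, had 0.55 ± 0.19 and 0.51 ± 0.19, Fgl2, a secreted fibrinogen-like protein, 0.54 ± 0.37, and Ido1, which degrades tryptophan, -0.45 ± 0.51. None passed.

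The antigen presentation genes also moved with that library. MHC class I presentation genes had 14 of 19 members positive, with a median of 0.11 that ran from -0.044 without double-knockout library 1 to 0.22 without double-knockout library 4, and none was called. Psme1 and Psme2, the proteasome activator subunits, had 0.42 ± 0.14 and 0.70 ± 0.18, and the class Ib gene H2-T24 -0.56 ± 0.20. MHC class II presentation genes had 9 of 10 positive, with a median of 0.63 (0.33 without library 1). H2-Ab1, a class II beta chain, had 5205, 1740.5, 2362 and 3499 in SAMHD1 KO and 33647, 4125, 7726 and 4631 in SAMHD1 MDA5 DKO (1.51 ± 0.59, limma adjusted p = 0.132), and the groups overlapped. H2-Aa had 1.42 ± 0.62, and H2-DMa and H2-DMb1, which load class II with peptide, 0.62 ± 0.23 and 0.65 ± 0.21, their groups not overlapping.

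**Figure D4:**
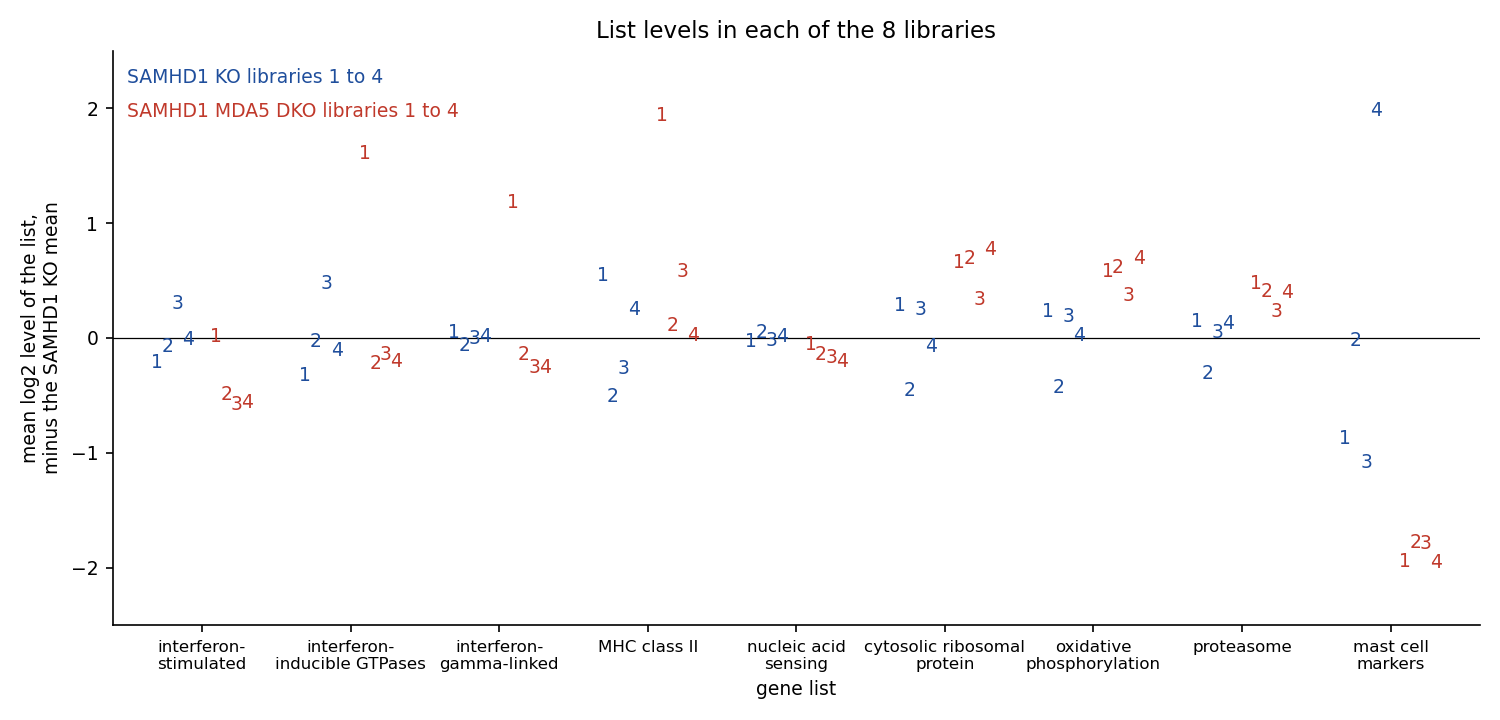
Mean log2 level of 9 gene lists in each library, minus the SAMHD1 KO mean of the list; digits are library numbers, blue for SAMHD1 KO and red for SAMHD1 MDA5 DKO. Double-knockout library 1 stands above all others for the GTPases, the interferon-gamma-linked genes and MHC class II. All red digits lie above all blue ones for cytosolic ribosomal proteins (by a narrow gap), oxidative phosphorylation and the proteasome, and all lie below for mast cell markers and nucleic acid sensing.

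Upstream of the response, no listed gene that was tested passed, other than Ifih1. Of the 14 interferons and receptors only 7 were tested, and nothing can be said of the rest. Of the tested members, 6 of 7 were negative with a median of -0.06, and -0.11 without double-knockout library 1. Jak2 and Tyk2, kinases of interferon and cytokine receptors, had -0.22 ± 0.08 and -0.16 ± 0.11, and the receptor chains Ifnar1 and Ifngr1 -0.21 ± 0.09 and 0.10 ± 0.13. Of 30 nucleic acid sensing genes 21 were negative and none was called, with a median of -0.11, and -0.18 without SAMHD1 KO library 1 and -0.072 without the libraries of intermediate Samhd1. Their level was 10.25, 10.33, 10.26 and 10.30 in SAMHD1 KO and 10.22, 10.14, 10.11 and 10.08 in SAMHD1 MDA5 DKO, with every double-knockout library below every SAMHD1 KO library. Adar and Eif2ak2 above belong to this list as well, and Rnaseh2c, a subunit of the nuclease that removes RNA from DNA, was on the other side with 0.60 ± 0.16.

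No chemokine or inflammatory gene of the lists passed either. Of 10 chemokines 6 were positive, with a median of 0.15, and 0.45 without the libraries apart on the first component and -0.01 without double-knockout library 1. Ccl6 and Ccl9, attractants of myeloid cells, had 0.71 ± 0.22 and 0.77 ± 0.25. Inflammatory and NF-kB target genes had 15 of 24 negative and a median of -0.12, or 20 of 24 and -0.20 without double-knockout library 1. Genes of dNTP metabolism, the substrate of SAMHD1, had 17 of 24 positive and a median of 0.17. Among them were adenosine deaminase Ada (0.75 ± 0.20), guanylate kinase Guk1 (0.62 ± 0.21) and the nucleoside diphosphate kinases Nme1 (0.50 ± 0.18) and Nme2 (1.02 ± 0.36), none of them passing.

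A broad positive shift was seen in genes of protein synthesis, respiration and protein breakdown. All 81 cytosolic ribosomal protein genes had positive log2 fold changes, with a median of 0.57, beside 45.4% positive and a median of -0.03 over all genes. In 49 of them the groups did not overlap (7.73% of all genes did so upward), and none was called. Of 90 oxidative phosphorylation genes 87 were positive (median 0.58, 65 without overlap, none called), of 78 mitochondrial ribosomal protein genes 77 (median 0.42, 2 called, beside 0.0528% of all genes called higher), and of 51 proteasome genes 47 (median 0.36, none called). Without the libraries apart on the first component the medians were 0.44, 0.42, 0.32 and 0.27, with 80, 87, 76 and 44 genes positive. Of these, 42, 58, 27 and 14 were called higher, beside 3.37% of all genes in that fit. The medians equal those without SAMHD1 KO library 2 alone, where only 10 genes were called over the genome. Leaving out WT library 3 as well changed the spread and not the fold changes.

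Single members show the same height. Rplp1, of the ribosomal stalk, had 40496, 23114, 39353 and 27899 in SAMHD1 KO and 55581, 55995, 44730.0 and 55859 in SAMHD1 MDA5 DKO, with SAMHD1 KO library 2 lowest and double-knockout library 3 lowest of its group (0.73 ± 0.20, limma adjusted p = 0.0804). Ndufa3, of respiratory complex I, had 1467, 994.8, 1457 and 1158 in SAMHD1 KO and 1991, 1984, 1734 and 2044 in SAMHD1 MDA5 DKO (0.63 ± 0.14, adjusted p = 0.0685), and Cox6c, of cytochrome c oxidase, 0.79 ± 0.19. Psmg4, a proteasome assembly chaperone, had 256.6, 139.8, 234.1 and 173.0 in SAMHD1 KO and 393.0, 391.6, 318.7 and 393.1 in SAMHD1 MDA5 DKO (0.93 ± 0.21). Rpl15, Rpl27 and Rps16 had 0.67, 0.88 and 0.81. Ribosomal protein genes have many processed pseudogenes, so reads may be split. The list level of the ribosomal protein genes was 13.64, 12.90, 13.61 and 13.29 in SAMHD1 KO and 14.01, 14.05, 13.69 and 14.13 in SAMHD1 MDA5 DKO.

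The same lists were positive in the other comparisons. In MDA5 KO against WT, which uses other libraries, the medians were 0.27 for cytosolic ribosomal, 0.27 for oxidative phosphorylation, 0.19 for mitochondrial ribosomal and 0.18 for proteasome genes. In SAMHD1 RIG-I DKO, which shares the SAMHD1 KO libraries, they were 0.61, 0.60, 0.39 and 0.36. The lists consist largely of short transcripts, with median lengths of 1049, 1106, 1866 and 1883 bases.

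Transcript length moved with the fold change over all genes. Among the 3310 genes with the shortest transcripts, 109 to 1970 bases, 73.3% had positive log2 fold changes and the median was 0.23, and 0.20 when the 4 lists were left out. Among the 3307 with the longest, 22.6% were positive and the median was -0.14. In SAMHD1 RIG-I DKO, which keeps MDA5 and shares the SAMHD1 KO libraries, the medians were 0.21 for the shortest and -0.12 for the longest. Across 13235 genes Spearman's rank correlation of length and log2 fold change was -0.405 in SAMHD1 MDA5 DKO against SAMHD1 KO and -0.272 in MDA5 KO against WT. This is a description across genes of the same libraries, which share depth and preparation and are not independent. The difference in level between short and long transcripts was -1.92, -2.24, -1.94 and -1.74 in SAMHD1 KO libraries 1 to 4 and -1.53, -1.55, -1.80 and -1.51 in the double knockout, and so overlapped between SAMHD1 KO library 4 and double-knockout library 3. Its part in the levels of the 4 lists was not tested.

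**Figure D5:**
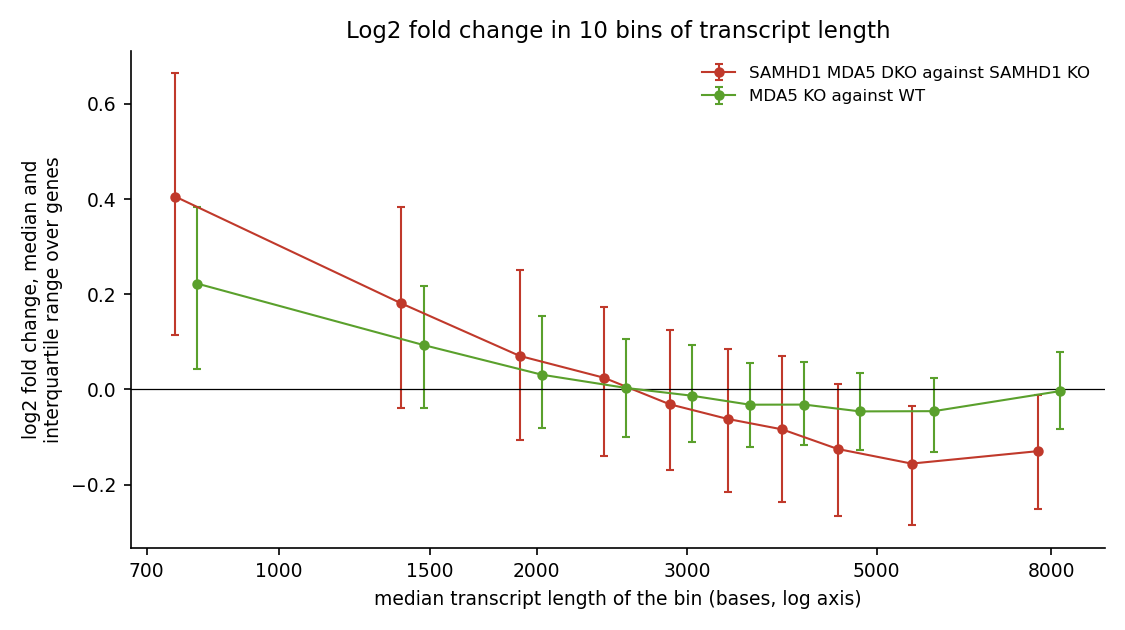
Median log2 fold change (points) and interquartile range over genes (bars) in 10 equal bins of transcript length (log axis, bases) for SAMHD1 MDA5 DKO against SAMHD1 KO and for MDA5 KO against WT, drawn slightly apart. The median runs from 0.41 in the shortest bin to -0.16 in the ninth in the first comparison and from 0.22 to -0.05 in the second.

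Markers of other cells varied between single libraries. Mast cell markers, 6 of 11 tested, were all negative, with a median of -2.05, and none was called. In MDA5 KO against WT their median was 0.62 with 5 of 6 positive, and 5 had an unadjusted limma interaction p under 0.05. In SAMHD1 RIG-I DKO, which keeps MDA5 and is compared with the same SAMHD1 KO libraries, the median was -4.465 with all 6 negative. Cma1, mast cell chymase, had 39.1, 46.6, 23.2 and 234.4 in SAMHD1 KO and 4.16, 12.7, 14.7 and 16.7 in SAMHD1 MDA5 DKO (-2.28 ± 0.73), so that SAMHD1 KO library 4 stood far above the rest. Without it the list median was -1.23. The defining markers Fcer1a, Ms4a2 and Gata2 were not among the genes analysed here, and the list summed to 1568 to 3421 in SAMHD1 KO and 711.8 to 2072 in SAMHD1 MDA5 DKO. Tpsb2, a tryptase, and the receptor gene Kit had -2.18 ± 0.79 and -1.96 ± 0.69. B cell markers had 11 of 12 negative and a median of -0.96, which was -0.43 without SAMHD1 KO library 1 and -1.74 without library 2. They summed to 1774 to 6539 in SAMHD1 KO and 2196 to 2879 in SAMHD1 MDA5 DKO, and their part in the gene lists above was not tested. Of the remaining markers, with none called, dendritic cell markers had a median of -0.47 (7 of 7 negative), neutrophil and eosinophil markers -0.40 (5 of 7 negative), T and NK cell markers -0.27 (2 of 4 negative) and small macrophage and monocyte markers 0.19 (7 of 17 negative, median 0.036 without double-knockout library 1). Erythroid and platelet markers had 3 of 5 positive and a median of 0.38, which was -0.71 without double-knockout library 1 and -0.84 without the libraries apart on the first component.

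Proliferation and handling also turned on single libraries. Of 34 proliferation genes 30 were positive, with a median of 0.33, while in MDA5 KO against WT it was -0.40. SAMHD1 KO library 4 had the highest level, 9.31 against at most 8.19 in the other 7, and the median was 1.04 without it, 0.03, 0.22 and 0.10 without libraries 1, 2 and 3 of SAMHD1 KO, and 0.18 without library 3 of the double knockout. Pcna, the sliding clamp of replication, had 0.49 ± 0.15. Dissociation and immediate early genes had 19 of 22 negative and a median of -0.31, which was -0.08 without SAMHD1 KO library 2 and -0.20 and -0.19 without libraries 2 and 3 of the double knockout. In SAMHD1 KO library 2 Fosb, an immediate early factor, reached 1019.8 normalized counts, against 32.4, 21.2 and 32.6 in the others of its group.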

How the data were processed

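Total RNA of mouse peritoneal macrophages was sequenced. Per the labels' protocols, reads were aligned with pBWA 0.5.9-r32-MPI-patch2 and counted with bedtools 2.16.2 on Ensembl Gene 61. Per the submitters' processing notes, the authors used STAR, Salmon, R 4.1.2 and DESeq2 with GRCm38 and mm10. The sources used here do not say which account applies to the values, or whether reads were counted by strand. The values per library were deposited by the authors as variance-stabilized log2 values with a floor of 5.81, and the deposited signal per genotype is the authors' mean of normalized counts. The deposited fold changes and p-values played no part.

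Inverting the transformation gave back normalized counts (largest relative deviation from the deposited means 4.62e-14), and 100% of values were whole reads at a tolerance of 0.01. Replicate pairs were no duplicates (chi-square per degree of freedom 29.6 to 164 in the genotypes of the comparison). Limma 3.58.1 (trend and robust, R 4.3.3) was fitted to log2 of normalized count + 1 in all 25 libraries, with genotype as the only factor. Tests were two-sided, with Benjamini-Hochberg adjustment over 13252 genes of at least 10 normalized counts in at least 4 libraries, and calls at an adjusted p under 0.05. The pseudocount understates fold changes of low genes. Fitting was tested on simulated data. Errors are SE unless marked SD. Lists are described without a test. Coordinates are from GENCODE M21 (GRCm38), which held 13259 of 13266 identifiers.

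Genes were named by rule: the targeted genes, called genes (at most 15 in each direction, filled to 10 with genes of smallest p), up to 4 members of each list with the smallest p, and 5 interaction genes. The lists and members were chosen with earlier results of these data known. Genes outside that rule (Slfn5, Ddx60, Rsad2, Ifi213, Oas2, Mx1, Rprm, 1700016A09Rik, the copies of Dynlt1b and genes near Fxyd6) were chosen after their values were seen. Alternatives were a pseudocount of 5, the deposited log2 values, no filter, a minimum of 50, voom on the recovered reads, median centring, limma without trend and robust, a fit of the genotypes compared alone, and leaving out libraries.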

Additional observations from a re-analysis of the deposited data

Results flagged for a closer look

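Within the groups of 4 libraries, a library was listed when its gap to the nearest other exceeded Dixon's critical value; of 224 groups examined 22 had one, and chance gives about 1 in 20. Library 1 of SAMHD1 MDA5 DKO was high for list means on the log2 scale: 10.43 for interferon-stimulated genes, 11.37 for the GTPases, 13.02 for MHC class I genes and 9.85 for interferon-gamma-linked genes. In normalized counts it was also high for Irf7 (3183), Gbp3 (6536), Psmb8 (8591), H2-DMb1 (2874) and Atp8b2 (187), and low for Pear1 (521). SAMHD1 KO library 2 was low for Rnaseh2c (427), Psmb8 (2482), H2-DMb1 (751), Ccl9 (12607) and Guk1 (443), and high for Fosb (1020). It is one of the libraries apart on the first component. SAMHD1 MDA5 DKO library 3, of intermediate Samhd1, was low for Rplp1 (44730), Psmg4 (319), Guk1 (837) and Pax5 (6.45), and its mean log2 level of B cell markers was 4.37. Library 2 of that genotype was low for Egr2 (44.9).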

How the results depend on the processing

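Called genes numbered 16 between SAMHD1 MDA5 DKO and SAMHD1 KO. They were 8 with a minimum of 50 and with voom, 4 in a fit of these genotypes alone, and 8 to 43 when 1 library was left out. Chosen after seeing the data, leaving out the libraries apart on the first component gave 534 and leaving out those of intermediate Samhd1 gave 6. Without all 3 the count was 1152. The fits with 534 and 1152 calls leave out WT library 3, which is in neither group. Pseudocount, scale, filter removal, centring and the prior gave counts within 1.5 times. In MDA5 KO against WT, 9 became 2 in a fit of those genotypes alone. The interaction stayed at 0 calls throughout, although its limma count at an unadjusted p under 0.05 rose from 368 to 1614 without WT library 3. Of 6 genes called within 20 megabases of Ifih1, the count was 3 with a minimum of 50 and 2 with the genotypes alone. It was 4 without the libraries of intermediate Samhd1, 12 without the apart libraries and 21 without all 3. The last 2 counts stand beside 534 and 1152 calls over all genes. The median of the nucleic acid sensing list was -0.18 to -0.093 when 1 library was left out, and on the deposited log2 values, a scale that shrinks low counts, that of mast cell markers was -0.78, of B cell markers -0.46 and of proliferation genes 0.11; otherwise the causes were not tested. Of 16 called genes, Ifih1, Rnd3 and Dynlt1b kept their call in all 19 alternatives and Kif5c in the 18 that tested it, a minimum of 50 leaving it out. The call was lost in 1 for Cytip and Vis1, 2 for Gca, 4 for Gm29170, 5 for Fap, 7 for Glmn, 8 for Dynlt1-ps1, Atp8b2 and 5031425F14Rik, 10 for Mrpl21 and 11 for Mrps14 and Fxyd6. No called value reversed. Of 80 named genes not called, 33 were called under some alternative. No paired analysis was possible because the columns carry no replicate number of the labels. Depth limits Fap, Fxyd6 and Vis1, which rest on few reads.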

Other observations

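A stretch of chromosome 9 around Fxyd6 held genes whose levels differed widely between libraries, found after the values were seen. Within 1 megabase of Fxyd6, 32 of 41 tested genes had negative log2 fold changes in SAMHD1 MDA5 DKO against SAMHD1 KO and 25 in MDA5 KO against WT. Over all genes 45.4% and 49.5% had positive values, so negative values were the more common there as well. At an unadjusted p under 0.05 were 14 genes in the first comparison (9 lower and 5 higher, 23.8% of all genes passing) and 9 in the second (6 lower and 3 higher, 5.27% of all genes). Tmprss13, a membrane serine protease, had 225.4, 359.2, 702.3 and 7.44 in SAMHD1 KO and 2.08, 4.61, 5.53 and 8.82 in SAMHD1 MDA5 DKO (-4.68 ± 1.30, limma adjusted p = 0.0827). In WT it had 341.3, 551.9, 374.7, 371.5 and 14.3 and in MDA5 KO 3.22, 10.9, 10.9 and 6.10. In SAMHD1 RIG-I DKO, which keeps MDA5, it had 13.1, 2.54, 5.10 and 0.973, and in RIG-I KO 438.3, 696.5, 9.44 and 401.9. Low levels thus occurred in all libraries without MDA5, in all of SAMHD1 RIG-I DKO and in single libraries of SAMHD1 KO, WT and RIG-I KO. BC049352 had 23.4, 7.96, 28.3 and 1.86 in SAMHD1 KO and 2.08, 2.30, 0.921 and 2.94 in SAMHD1 MDA5 DKO. It had 11.7, 26.04, 8.74, 20.4 and 2.04 in WT, 1.07, 0.987, 4.96 and 2.61 in MDA5 KO, 4.77, 1.69, 2.55 and 0.973 in SAMHD1 RIG-I DKO and 19.1, 19.02, 2.10 and 17.7 in RIG-I KO. Fxyd6 in WT was 23.4, 31.1, 34.9, 13.6 and 7.14, in MDA5 KO 2.15, 1.97, 0.993 and 2.61, in SAMHD1 RIG-I DKO 7.16, 0.846, 2.55 and 0.973 and in RIG-I KO 9.55, 9.01, 1.05 and 3.93. SAMHD1 KO library 4, WT library 5 and RIG-I KO library 3 were the lowest of their groups for all 3 genes. Tmprss4 had -1.21 ± 0.48 and Scn2b, a sodium channel subunit, -0.75 ± 0.32.

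Other functional lists had no called member in SAMHD1 MDA5 DKO against SAMHD1 KO. Their medians, beside -0.03 over all genes, were 0.05 for complement and scavenger genes, -0.02 for Fc receptor genes, -0.08 for sterol genes, 0.05 for lysosomal genes, 0.18 for hypoxia and glycolysis genes, -0.06 for unfolded protein response genes and 0.04 for p53 target genes. Without the libraries apart on the first component, SAMHD1 KO library 2 and WT library 3, they were in the same order, -0.02, -0.07, 0.03, -0.08, 0.05, -0.16 and 0.04.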
